A study of Homo sapiens with 36 samples.

Results

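The change in polysome association between day 0 and day 14 of the 5-fluorouracil (5-FU) course was examined in HCT116, an established human colorectal carcinoma cell line. Cells labelled D0 had not yet received the drug, and cells labelled D14 came from the course with 10 µM 5-FU for 48 h, a pyrimidine analogue that blocks thymidylate synthesis and is incorporated into RNA. On each day a cytoplasmic RNA library and a library of the heavy polysomal pool (fractions of a sucrose gradient with more than 3 ribosomes per mRNA) were made from each of the letters A, B and C, which the labels give as batches. The 12 libraries of D0 and D14 were chosen by their labels from 36 libraries, and 15864 of the 15891 genes in the deposited table were tested. For each letter and day, the log2 ratio of heavy pool to cytoplasm was taken and expressed relative to the median gene of that collection. Its change from D0 to D14, with 3 ratios a side, is called the association change. No untreated culture was kept to D14 among the samples, so the drug and 14 days of culture cannot be told apart. Each library is bulk RNA, so a change in all cells and a change in the share of some cells cannot be told apart either. The labels do not say that the letters are separate cultures, and the p-values measure the spread between these samples only.

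An mRNA under translation is loaded with several ribosomes and sediments in the heavy part of the gradient, whereas free mRNA and mRNA with 1 or a few ribosomes stays in the light part. How many ribosomes an mRNA can hold depends on the length of its coding sequence, so mRNAs with short coding sequences reach the heavy pool less easily. The mRNAs of ribosomal proteins and elongation factors start with a run of pyrimidines, the terminal oligopyrimidine (TOP) motif, through which mTORC1 and the LARP1 protein control their loading. Messengers encoded by the mitochondrial genome are translated inside mitochondria by mitochondrial ribosomes and are not loaded on cytosolic polysomes.

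The libraries of D0 and D14 held 44.22 to 52.04 megareads in the cytoplasm and 48.72 to 54.51 megareads in the heavy pool. The cytoplasmic library of D14 letter B stood apart. The SD over genes of its log2 difference from D14 A and C was 0.768 and 0.776, against 0.356 between A and C, and D16 letter B did the same (0.718 and 0.785, against 0.379). The 3 heavy libraries of D14 differed from each other by SDs of 0.314 to 0.323. The deviation of the D14 B ratio from the mean of the 3 letters went with the GC content of genes (r = -0.682 over genes). For D14 A and C r was 0.57 and 0.493. Deviations from a shared mean cancel over the letters, so the opposite sign is partly built in and shows no separate GC effect in A and C. Main results are therefore also given without D14 B. Markers of colorectal epithelium in the table were EPCAM, KRT8, KRT18, KRT19, CDH1, CDX2 and KRT20, 7 of 12 listed, and 5 of 20 markers of other lineages were in it.

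Polysome association changed for 4020 genes at an adjusted p under 0.05 in limma's test, 25.3% of those tested. Of these, 2177 (13.7%) were higher at D14 and 1843 (11.6%) lower, and 2435 of them changed at least 2-fold. Without D14 B, 1988 genes were called, 1300 higher and 688 lower. The count was 2014 without D0 A, 2297 without D0 B, 396 without letter B on all days and 112 without letter C on all days. The division into higher and lower depends on the reference. Without centring on the median gene it was 1724 against 2477. With the median of well expressed protein-coding genes as the reference it was 2539 against 1299. The median uncentred ratio was between 0.12 and 0.16 at D0 and between -0.003 and 0.04 at D14.

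Most genes with a changed association were called in the heavy pool and not in the cytoplasm. In the heavy pool 11387 of 15736 genes were called (72.4%; 34.5% higher, 37.8% lower), whereas in the cytoplasm 2038 of 15795 were (12.9%; 7.79% higher, 5.11% lower). The fractions were not measured with equal precision. Letters of the same day, D0 or D14, differed by SDs over genes of 0.356 to 0.776 among cytoplasmic libraries. Among heavy libraries these SDs were 0.314 to 0.348. A change of a given size was thus harder to call in the cytoplasm, and no call there, here and below, does not mean no change. Among the 2170 genes with higher association that were tested in both fractions, 1826 rose in the heavy pool with no call in the cytoplasm, 85 rose in both, and 68 fell in the cytoplasm with no call in the heavy pool. Among the 1843 with lower association, 1511 fell in the heavy pool with no call in the cytoplasm, 159 fell in both, and 89 rose in the cytoplasm with no call in the heavy pool. All these genes were chosen by the change of heavy pool relative to cytoplasm in the same libraries. A heavy pool change of the matching sign is therefore partly built into these counts. How many of all genes tested had a heavy pool call and no cytoplasmic call is not given here. The counts thus do not show that genes with a changed association differ from other genes in this respect.

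**Figure D1:**
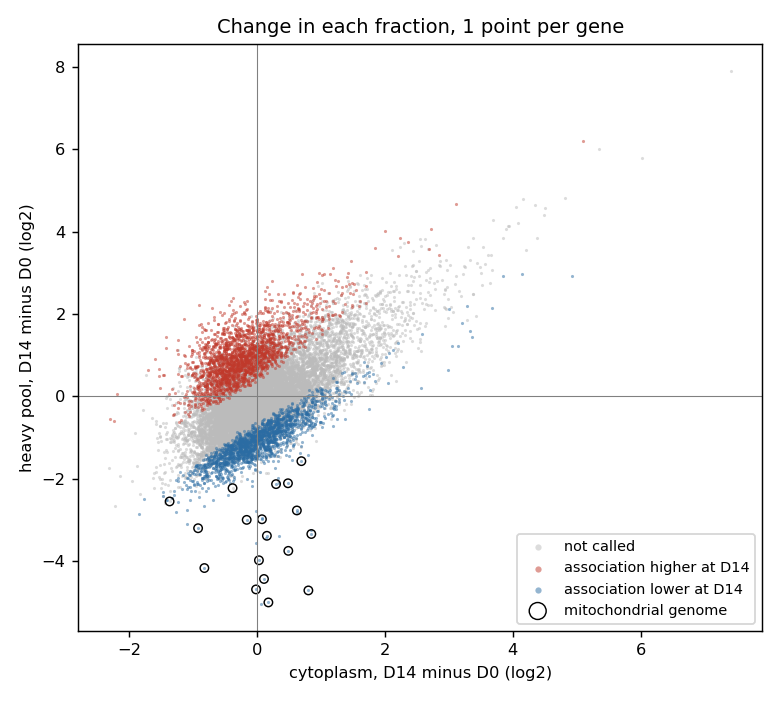
Change of each gene from D0 to D14 in the cytoplasm (horizontal axis, log2) and in the heavy pool (vertical axis, log2), 1 point per gene, coloured by the call of the association change; open circles mark genes of the mitochondrial genome. Genes with higher association (2177 called, those tested in both fractions shown) lie mostly above the cloud and those with lower association (1843) mostly below it. These positions are partly built in, since association is the heavy pool relative to the cytoplasm. Most mitochondrial genes lie among the lowest, as do nuclear pseudogenes of them such as MTND2P28 (-5.04 in the heavy pool), which are not circled.

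The heavy pool and the cytoplasm were more alike at D14 than at D0. Over nuclear protein-coding genes the SD of the ratio was 0.806, 0.729 and 0.694 at D0 in letters A, B and C, and 0.394, 0.697 and 0.403 at D14. The share of these genes within 0.5 log2 units of the median gene was 45.4%, 49.6% and 50.9% at D0 and 84.9%, 53.4% and 84% at D14. Both measures thus moved in A and C and little in B, the letter with the deviating cytoplasmic library. Of 11492 nuclear protein-coding genes with a symbol and a group mean of at least 100, 720 were at least 2-fold below the median gene in all 3 letters at D0, and 17 were at D14. Another 113 were at least 2-fold above it in all 3 letters at D0 and 0 at D14. By the mean of the letters, 9509 of 12383 nuclear protein-coding genes (76.8%) lay nearer the median gene at D14 than at D0. The correlation of the D0 ratio with the D14 ratio over 12383 genes was 0.205, -0.309 and 0.113 within letters A, B and C.

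Coding length ordered the change. At D0 the ratio rose with coding length in every letter (r = 0.516, 0.434 and 0.465 with log10 length over genes), and at D14 it fell with it (r = -0.201, -0.166 and -0.317). Classes of coding length include their lower bound. The 209 genes with coding sequences under 300 nucleotides had a median ratio of -1.27 at D0 and 0.13 at D14, and 154 of them were called higher and 1 lower. Among 1273 genes of 300 to 600 nucleotides, 611 were called higher and 7 lower, with a median change of 0.87. The median change was 0.23 for 3542 genes of 600 to 1200 nucleotides, -0.25 for 4607 genes of 1200 to 2400 and -0.59 for 2135 genes of 2400 to 4800. The 617 genes of 4800 nucleotides and over had a median ratio of 0.42 at D0 and -0.37 at D14, with 5 called higher and 213 lower. Without D14 B the medians of the shortest and longest classes were 1.31 and -0.81. The correlation of the association change with log10 coding length over 12383 genes was -0.607, and within letters A, B and C it was -0.602, -0.374 and -0.591. These genes share libraries, so the correlations describe the collections. Of 1413 long noncoding RNAs, 181 were called higher (12.8%, against 13.7% of all genes tested) and 12 lower (0.849%, against 11.6%), with a median change of 0.52. Of 1867 pseudogenes 357 were higher (19.1%) and 38 lower (2.04%), with a median of 0.56.

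**Figure D2:**
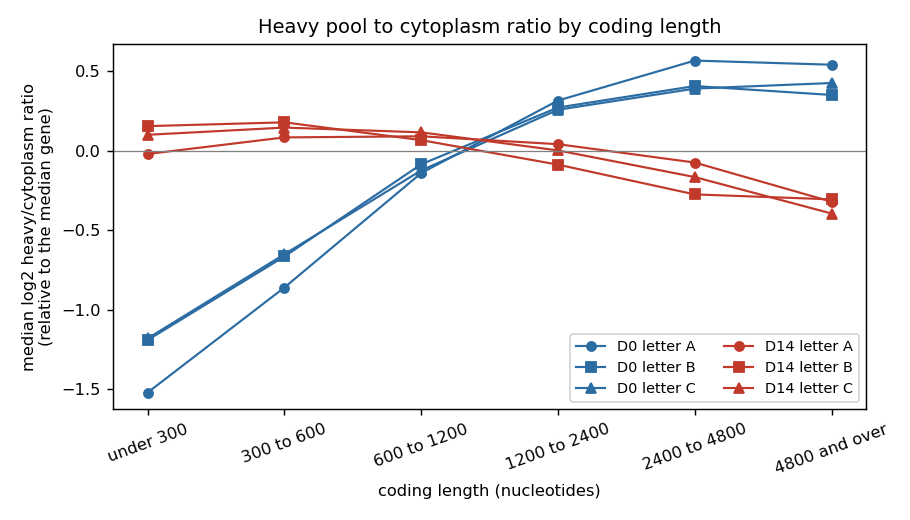
Median log2 ratio of heavy pool to cytoplasm, relative to the median gene, for 6 classes of coding length (horizontal axis, nucleotides), with 1 line for each of the 3 letters at D0 (blue) and at D14 (red). At D0 the lines climb from the shortest class (median -1.27 for the mean of the letters) to the longer ones, and at D14 they run from 0.13 in the shortest to -0.37 in the longest.

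The starts of the mRNAs that follow are shown because messengers that share the pyrimidine start had different changes. Each line gives 10 bases before and 20 after the RefSeq start of transcription (GRCh38.p14), with the unbroken run of pyrimidines from the start in capitals. The genes run from shorter to longer coding sequence (396 nucleotides in RPS12, 2574 in EEF2), and RPL41, with 75, stands last because it was singled out after its values were seen.
RPS12 (chr6:132814559-132814588, + strand): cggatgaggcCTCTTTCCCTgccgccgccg
RPL12 (chr9:127451387-127451416, - strand): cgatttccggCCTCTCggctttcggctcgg
RPLP0 (chr12:120201092-120201121, - strand): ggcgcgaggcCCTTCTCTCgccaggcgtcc
EEF1A1 (chr6:73521013-73521042, - strand): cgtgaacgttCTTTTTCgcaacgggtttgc
EIF4B (chr12:53006446-53006475, + strand): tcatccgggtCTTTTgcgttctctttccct
EEF2 (chr19:3985444-3985473, - strand): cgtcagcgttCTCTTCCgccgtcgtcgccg
RPL41 (chr12:56116623-56116652, + strand): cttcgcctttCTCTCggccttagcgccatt
A start with C and at least 4 further pyrimidines, read on the strand of the gene, was present in 4.07% of all 35116 promoter entries and in 5.42% of the 10728 entries matched to tested genes. It was present in 43 of 63 matched ribosomal protein genes (68.3%) and in 12 of 13 matched genes of the TOP translation factor list. Within classes of coding length, genes with and without this start could be set side by side. The median change was 1.32 with it (20 genes) and 1.39 without it (148 genes) under 300 nucleotides, and 1.13 (74 genes) and 0.858 (960 genes) from 300 to 600. It was 0.33 with the start and 0.224 without it from 600 to 1200 nucleotides, -0.193 and -0.26 from 1200 to 2400, -0.626 (78 genes) and -0.587 (1670 genes) from 2400 to 4800, and -0.76 and -0.785 from 4800 on. The median with the start lay above that without it in the 3 classes from 300 to 2400 nucleotides and in the longest, and below it in the other 2; the gap was widest from 300 to 600. These are descriptions, with no test.

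Many ribosomal protein mRNAs gained association at D14. Of 79 cytosolic ribosomal protein genes 36 were called higher and 0 lower, against 13.7% and 11.6% of all genes tested, and the median change was 0.96 against 0.03 for all genes. Without D14 B 13 were called, with a median of 1.01, and with the letter as a block in the fit 65 were called. In the heavy pool 70 of the 79 rose and 0 fell, against 34.5% and 37.8% of all genes tested there. In the cytoplasm 0 rose and 0 fell, against 7.79% and 5.11% of all genes, so few calls would be made there in any list of this size. The list's median ratio was -1.45, -1.09 and -0.99 at D0 in letters A, B and C, and -0.24, -0.07 and -0.05 at D14, so the days did not overlap. Ribosomal protein genes took 5.91% to 6.33% of heavy pool reads at D0 and 11.4% to 12.4% at D14, and 10.5% to 12.7% of cytoplasmic reads over both days. Counts of these genes can be shared with near-identical processed pseudogenes, which the counting may have split.

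RPL12, a protein of the stalk base of the large subunit, had the largest change of the family. Its normalised counts in the heavy pool were 33857, 38373 and 36800 at D0 and 138550, 153070 and 141090 at D14, and in the cytoplasm 185600, 170990 and 150350 at D0 and 147300, 148750 and 135820 at D14. The heavy pool values of the days were far apart. The cytoplasmic values at D14 all lay below those at D0, by a smaller amount (-0.23, log2, adjusted p = 0.76, limma). The association change was 2.34 ± 0.41 (log2, SE; adjusted p = 0.0014, limma, n = 3 per day). RPS12, of the small subunit, read 13217, 14434 and 14335 in the heavy pool at D0 and 43214, 49726 and 46517 at D14, a change in association of 1.94 ± 0.41 (adjusted p = 0.0041, limma). RPL17 (2.11) and RPS20 (2.04) rose by similar amounts. RPLP0, the stalk protein with a longer reading frame, rose by 0.95 ± 0.23 (adjusted p = 0.0088, limma).

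Within the family the change again followed coding length. The median change was 1.24 for the 9 genes under 300 nucleotides, 1.08 for the 45 from 300 to 600, 0.67 for the 23 from 600 to 1200 and 0.09 for the 2 longest, RPL3 and RPL4. RPL3, a core protein of the peptidyl transferase centre, had ratios of -0.29, -0.08 and 0.02 at D0 and -0.01, -0.04 and 0.19 at D14, and those of the days overlapped. The exception among the short ones was RPL41, whose coding sequence of 75 nucleotides is the shortest of the family. Its ratio was -2.06, -1.53 and -1.61 at D0 and -2.08, -1.96 and -1.82 at D14 (change -0.22, 95% interval -0.92 to 0.48, adjusted p = 0.67, limma).

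**Figure D3:**
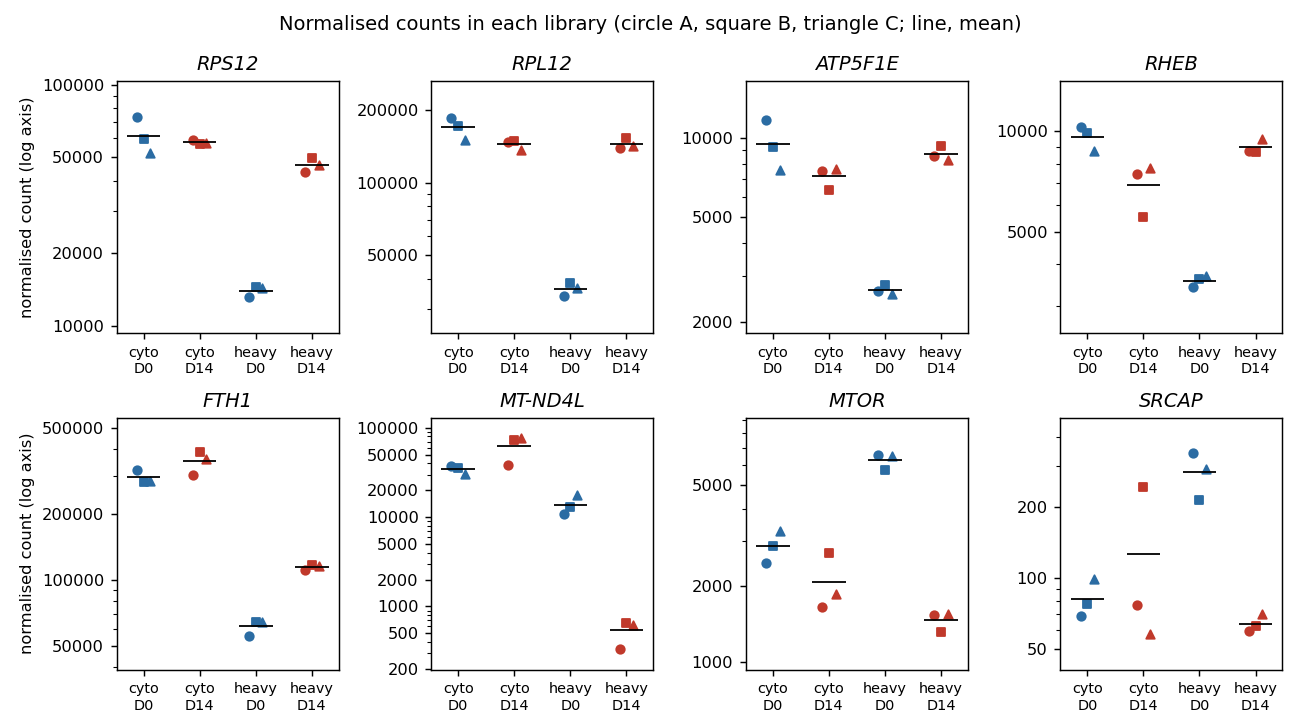
Normalised counts (log axis) of 8 genes in the 12 libraries, by fraction and day, with a circle, square and triangle for letters A, B and C, blue for D0, red for D14 and a line at the mean of 3. The heavy pool values of RPS12, RPL12, ATP5F1E, RHEB and FTH1 at D14 all lie above those of D0, and those of MT-ND4L, MTOR and SRCAP all lie below.

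The TOP translation factors, the non-ribosomal members of the class, moved less. Of 19 tested, 2 were called higher (10.5%) and 1 lower (5.26%), against 13.7% and 11.6% of all genes tested, with a median change of 0.39. Without D14 B 0 were called higher and 1 lower, with a median of 0.26 (4 higher with the letter as a block). TPT1, the translationally controlled tumour protein, rose by 1.25 and BTF3, a subunit of the nascent polypeptide-associated complex, by 1.09. Both lost the call without D14 B (adjusted p = 0.11 and 0.1, limma) and also without D0 A or D0 B, and BTF3 without D14 C (largest adjusted p = 0.113 and 0.134). EIF4B, a cofactor of the helicase eIF4A, fell by 0.58 (adjusted p = 0.024, limma), a call that was lost without D0 A, D0 C, D14 A or D14 C (adjusted p = 0.0602 to 0.0832). EEF1A1, which delivers aminoacyl-tRNA to the ribosome, had a change of 0.31 (adjusted p = 0.34, limma) and EEF2, the translocase, one of -0.39 (adjusted p = 0.28, limma).

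Regulators of initiation moved in both directions. Of 29 genes of initiation and the mTOR pathway, 5 were called higher and 6 lower (5 and 3 without D14 B). These were 17.2% and 20.7%, against 13.7% and 11.6% of all genes tested, and the median change was 0.02. RHEB, the small GTPase that activates mTORC1, read 3420, 3618 and 3684 in the heavy pool at D0 and 8733, 8655 and 9481 at D14, and its association rose by 1.94 ± 0.27 (adjusted p = 0.00029, limma). EIF4EBP1, the repressor of eIF4E that mTORC1 phosphorylates, rose by 1.65 ± 0.27 (adjusted p = 0.00087, limma). MTOR, the kinase itself, read 6523, 5725 and 6465 in the heavy pool at D0 and 1534, 1315 and 1551 at D14, and its association fell by 1.46 ± 0.32 (adjusted p = 0.0046, limma). RPTOR, the scaffold of mTORC1, fell by 1.21, and its change without D14 B was -0.88 and not called (adjusted p = 0.07, limma). The coding sequences of RHEB and EIF4EBP1 have 552 and 354 nucleotides and those of MTOR and RPTOR 7647 and 4005. EIF4E had a change of 0.30 that did not pass and that was -0.13 without D14 B.

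Many nuclear genes for mitochondrial energy production gained association. Of 65 nuclear-encoded subunits of the respiratory chain and ATP synthase, 34 were called higher (52.3%) and 4 lower (6.15%), against 13.7% and 11.6% of all genes tested. Their median change was 1.10 (without D14 B 23 and 2, median 1.18). Of 41 mitochondrial ribosomal proteins 14 were called higher (34.15%) and 0 lower, with a median of 0.48 (9 and 0 without D14 B). ATP5F1E, the epsilon subunit of ATP synthase, read 2629, 2759 and 2542 in the heavy pool at D0 and 8540, 9347 and 8292 at D14, with overlapping cytoplasmic values of 11782, 9270 and 7603 at D0 and 7507, 6362 and 7666 at D14. Its association rose by 2.24 ± 0.39 (adjusted p = 0.0013, limma). ATP5PF, of the ATP synthase stalk, and UQCR10, of complex III, each rose by 2.04. MRPS15 and MRPL36, of the small and large mitochondrial ribosomal subunits, rose by 1.80 and 1.74. NDUFA5, of complex I, rose by 1.95, but its D14 ratios were -0.32, 1.80 and -0.20, and without D14 B the change was 1.26 and not called (adjusted p = 0.097, limma). Its call was lost without D0 A or D0 B too (lowest adjusted p = 0.0529).

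The mRNAs encoded by the mitochondrial genome moved the other way and by more than any other group listed. Of 13, 12 were called lower (92.3%, against 11.6% of all genes tested) and 0 higher, with a median change of -3.88. The same count was reached without D14 B. All 13 fell in the heavy pool, against 37.8% of all genes tested there. In the cytoplasm 1 fell and 0 rose, against 5.11% and 7.79% of all genes. Mitochondrial reads made up 1.41% to 2.13% of the heavy pool at D0 and 0.181% to 0.312% at D14, and 5.05% to 9.80% of the cytoplasm over both days. Per the labels' protocols mitochondria were pelleted before the gradient, so these reads are what remained. MT-ND4L, a subunit of complex I, read 10742, 13149 and 17499 in the heavy pool at D0 and 333, 659 and 622 at D14. In the cytoplasm it read 37525, 35630 and 30056 at D0 and 38425, 73350 and 76090 at D14. The heavy pool values dropped far below their D0 range in all 3 letters, and the association change was -5.39 ± 0.35 (adjusted p = 1.5e-07, limma). MT-ATP8 fell by 5.06, MT-ND2 fell by 4.55 and MT-CO1, the catalytic subunit of cytochrome oxidase, fell by 3.27. MT-ND6, encoded on the other strand of the mitochondrial genome, had a change of -1.06 that did not pass (adjusted p = 0.075, limma).

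The protein-coding genes with the largest rises were mostly short as well. POLR2J, a subunit of RNA polymerase II, had ratios of -2.80, -2.35 and -2.40 at D0 and 0.18, -0.02 and 0.23 at D14, a rise of 2.65 ± 0.33 (adjusted p = 0.00011, limma). PPDPF went from -3.34, -2.55 and -2.74 to -0.05, -0.42 and -0.31, a rise of 2.61 ± 0.34 (adjusted p = 0.00012, limma). In both genes every D14 letter lay above every D0 letter by more than the spread within a day. IER3IP1 (2.85), a protein of the endoplasmic reticulum, PDCD5 (2.51) and GCSH (2.54), the carrier protein of the glycine cleavage system, rose too. The D14 ratios of these genes were highest in letter B (1.26, 1.10 and 0.87). Without D14 B their changes were 2.47, 2.16 and 2.20 and still called. For SNX10, ZCRB1 and DYNLT3 the D14 ratios of letter B were 2.05, 1.52 and 2.11 and those of A and C between -0.59 and -0.32. Their changes of 2.77, 2.65 and 2.60 became 1.96, 2.02 and 1.74 without D14 B, and DYNLT3 was no longer called (adjusted p = 0.064, limma). Outside the mitochondrial genome the largest fall named by the rule was that of SRCAP, a chromatin remodeller with a coding sequence of 9690 nucleotides, at -2.32. Its D14 ratios were -0.40, -1.95 and 0.26, and without D14 B the change was -1.69 and not called (adjusted p = 0.07, limma), nor was it without D0 A (adjusted p = 0.0569).

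Among genes of chromatin, DNA replication and mitosis more were called lower than higher. Of 38 chromatin regulators 0 were called higher and 18 lower (47.4%), against 13.7% and 11.6% of all genes tested. Their median change was -0.92 (6 lower without D14 B, median -0.84). Their list median was 0.54, 0.49 and 0.38 at D0 and -0.37, -0.41 and -0.49 at D14. KAT6A, a histone acetyltransferase, fell by 1.58, and KMT2D and CREBBP each fell by 1.49, and the calls of KMT2D and CREBBP were lost without D14 B (adjusted p = 0.14 and 0.1, limma) and without D0 A or D0 B (lowest adjusted p = 0.0692 and 0.0584). KAT6A lost its call without D0 A (adjusted p = 0.0636). Of 38 DNA replication genes 14 were called lower (36.8%) and 2 higher (5.26%), with a median of -0.52 (10 and 2 without D14 B). MCM2, a subunit of the replicative helicase, read 25979, 24231 and 29229 in the heavy pool at D0 and 5561, 5576 and 5818 at D14, and 9643, 9617 and 13383 in the cytoplasm at D0 and 5187, 9027 and 5327 at D14. Both fractions were lower at D14, the heavy pool by more, and the association fell by 1.32 ± 0.30 (adjusted p = 0.0056, limma). MCM7 fell by 1.14. RPA3, the smallest subunit of replication protein A, rose by 1.40. Of 39 mitosis genes 8 were called lower (20.5%) and 2 higher (5.13%), with a median of -0.37 (4 and 1 without D14 B, median -0.64). The mitosis median was -0.63 in letter A, 0.27 in B and -0.79 in C, so B lay on the other side of 0. KIF2C, a kinesin that removes tubulin from microtubule ends, fell by 0.95, and CENPA, the short centromeric histone, rose by 1.36.

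Of 20 aminoacyl-tRNA synthetases 10 were called lower (50%) and 0 higher, with a median of -0.58 (4 and 0 without D14 B). Of all genes tested 11.6% were lower and 13.7% higher. MARS1, which charges methionine tRNA, fell by 1.01 and VARS1, for valine, fell by 1.14, a call that was lost without D14 B (adjusted p = 0.073, limma). Of 40 ribosome biogenesis genes 14 were called lower (35%) and 2 higher (5%), with a median of -0.48 (4 and 2 without D14 B). POLR1B, a core subunit of RNA polymerase I, fell by 1.10. The 2 that rose were NOP10 (1.55) and NHP2 (1.16), small proteins of the particles that make pseudouridine. Of 13 tubulins 7 were called lower (53.85%) and 1 higher (7.69%), and 0 and 0 without D14 B. Among them TUBA1B, the main alpha tubulin, fell by 0.80, a call lost without D14 B (adjusted p = 0.0688, limma). TUBA1B and TUBA1C are near-identical, and reads between them may have been split. Of 27 glycolysis and hypoxia genes 9 were called lower (33.3%) and 2 higher (7.41%), and 0 and 1 without D14 B. BNIP3, a mitophagy receptor, rose by 1.73, and PFKP, the platelet phosphofructokinase, fell by 0.93, a call lost without D14 B (adjusted p = 0.051, limma).

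**Figure D4:**
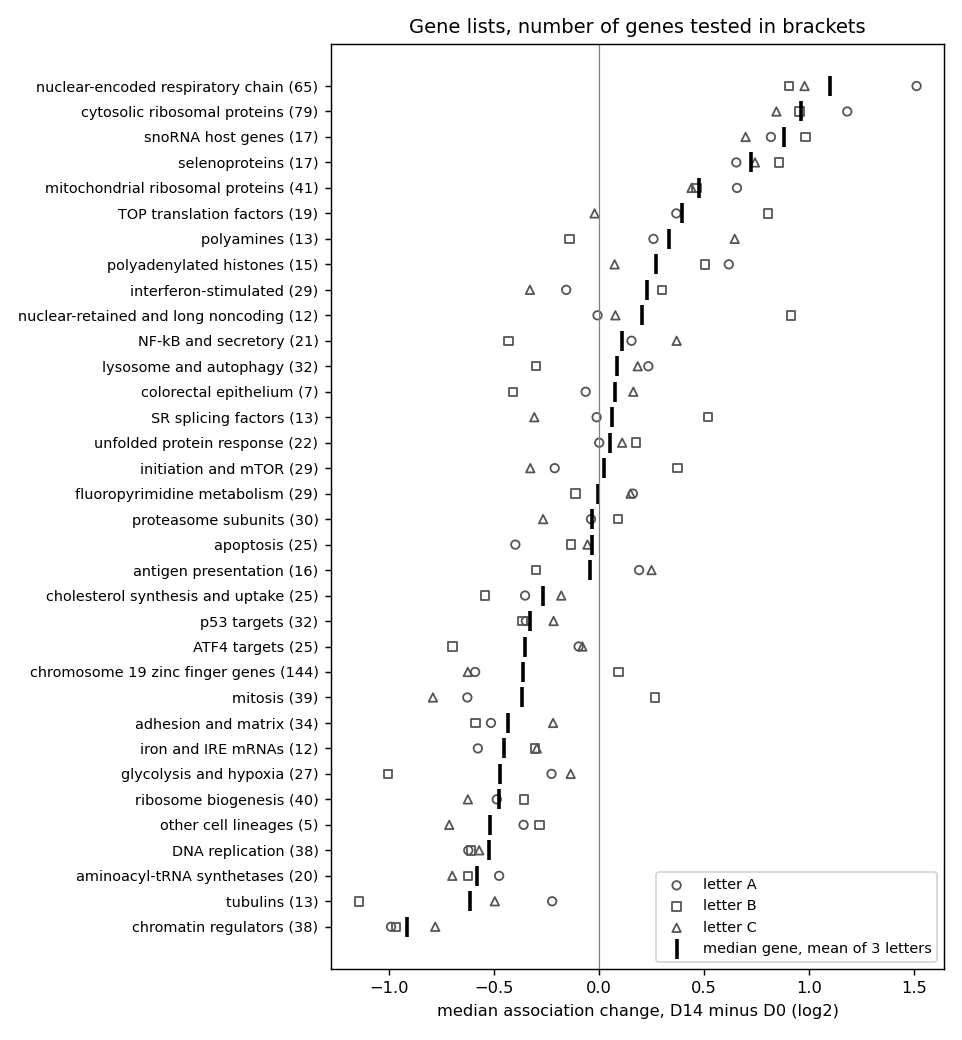
Median association change (D14 minus D0, log2) of each gene list in letters A, B and C (open symbols), with a bar for the median gene of the mean over letters; numbers of genes tested are in brackets, and the mitochondrially encoded mRNAs (median -3.88) are off the scale and not drawn. The respiratory chain (1.10) and the cytosolic ribosomal proteins (0.96) lie highest and the chromatin regulators (-0.92) lowest, with the 3 letters on the same side of 0, while letter B lies on the other side from A and C for several lists near 0 and for mitosis (-0.37), the zinc finger genes of chromosome 19 (-0.36) and polyamines (0.33).

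Genes of the p53 response and of 5-FU metabolism had no common direction. Of 32 p53 targets 5 were called higher (15.6%) and 7 lower (21.9%), with a median of -0.33 (1 and 2 without D14 B). Of all genes tested 13.7% were higher and 11.6% lower. CDKN1A, the p21 inhibitor of cyclin-dependent kinases, read 7009, 6583 and 7739 in the cytoplasm at D0 and 21940, 34055 and 25949 at D14, and 10791, 10347 and 9600 in the heavy pool at D0 and 25849, 26788 and 28925 at D14. It was thus higher at D14 in both fractions in every letter, and its association change was -0.39 (95% interval -0.90 to 0.12, adjusted p = 0.26, limma). MDM2, the ubiquitin ligase of p53, had a change of -0.07 (adjusted p = 0.9, limma). SESN2, a stress-induced inhibitor of mTORC1, fell by 1.00 (adjusted p = 0.0059, limma). RPS27L rose by 1.46, a call lost without D14 B (adjusted p = 0.06, limma). Of 29 genes of fluoropyrimidine metabolism 8 were called higher (27.6%) and 7 lower (24.1%; 5 and 4 without D14 B). TYMS, thymidylate synthase and the target of the active drug, had ratios of 0.03, 0.07 and 0.19 at D0 and 0.38, 0.32 and 0.37 at D14, a change of 0.26 (95% interval -0.12 to 0.64, adjusted p = 0.31, limma). RRM2, of ribonucleotide reductase, fell by 0.52 (adjusted p = 0.026, limma), a call that was lost without any 1 of the 6 ratios (adjusted p = 0.0538 to 0.0802). CDA, cytidine deaminase, rose by 1.44 (adjusted p = 0.012, limma; 0.0584 without D0 A). MYC had a change of -0.81 (adjusted p = 0.06, limma), which passed with the letter as a block (adjusted p = 0.014).

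The ferritin messengers were low in the heavy pool, relative to the cytoplasm, on both days. Iron regulatory proteins bind a hairpin in the 5′ UTR of these mRNAs, the iron-responsive element, and block their translation when iron is short. The loop, CAGTG and the next base, is in capitals in the 30 bases shown, from GENCODE 29 (GRCh38).
FTH1 (chr11:61967576-61967605, - strand): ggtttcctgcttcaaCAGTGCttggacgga
FTL (chr19:48965332-48965361, + strand): tgtctcttgcttcaaCAGTGTttggacgga
The pattern of a C, 5 bases of any kind and CAGTG, searched on the strand of the gene, was found in 986 of 11180 5′ UTRs of at least 30 bases (8.82%), so a match alone is common. FTH1, the heavy chain, had ratios of -2.69, -2.26 and -2.29 at D0 and -1.48, -1.71 and -1.64 at D14, and rose by 0.80 (adjusted p = 0.038, limma), a call that was lost without any 1 of the 6 ratios (adjusted p = 0.0622 to 0.152). FTL, the light chain, had ratios of -2.81, -2.57 and -2.73 at D0 and -2.17, -2.42 and -2.36 at D14, a change of 0.39 that did not pass (adjusted p = 0.3, limma). With coding lengths of 549 and 525 nucleotides, both stayed far below their length class, whose median ratio at D14 was 0.16. They were among the 17 genes at least 2-fold below the median gene in every letter at D14, as were RPL41, IGF2, IDS and PRKDC, named here after their values were seen. IDS, a lysosomal sulfatase, had the lowest mean ratio of the 17, -3.02. Of 12 iron and iron-responsive genes tested, 1 was called higher (8.33%) and 4 lower (33.3%), against 13.7% and 11.6% of all genes tested (0 and 2 without D14 B).

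Among selenoproteins, polyamine genes and host genes of small nucleolar RNAs more were called higher than lower. Of 17 selenoproteins 9 were called higher (52.9%) and 1 lower (5.88%), against 13.7% and 11.6% of all genes tested. Their median was 0.72 (5 and 0 without D14 B, 2 lower with the block). GPX4, the peroxidase that removes lipid hydroperoxides, read 7767, 8717 and 8908 in the heavy pool at D0 and 24198, 28463 and 23931 at D14, and rose by 1.71 ± 0.30 (adjusted p = 0.0013, limma). Of 13 polyamine genes 5 were called higher (38.5%) and 1 lower (7.69%), and 2 were lower with the block. ODC1, the first enzyme of polyamine synthesis, had ratios of -1.03, -1.04 and -1.10 at D0 and -0.04, -0.25 and -0.05 at D14, a rise of 0.94 ± 0.17 (adjusted p = 0.0017, limma). Its heavy pool counts were alike on both days (18686, 19272 and 22102, then 17666, 18768 and 21210), and its cytoplasmic counts went from 34052, 36446 and 42569 to 17660, 22418 and 21687. SRM, spermidine synthase, rose by 1.21, SMS, spermine synthase, by 1.15, and MAT2A, which makes S-adenosylmethionine, fell by 1.06. Of 17 host genes of small nucleolar RNAs 8 were called higher (47.1%) and 0 lower, with a median of 0.88 (5 and 0 without D14 B). Among noncoding RNAs DANCR rose by 2.00, SNHG12 by 1.90 and PVT1 by 1.58. NORAD, the long RNA that binds Pumilio proteins, fell by 1.34. Its cytoplasmic counts were 4022, 4644 and 4532 at D0 and 11364, 7142 and 12204 at D14, and its heavy pool counts 3953, 3517 and 3527 and then 3332, 2681 and 3043.

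Since coding length ordered so much of the change, the fit was repeated after the trend of each ratio with coding length was removed, a step chosen after the data were seen. Of 12383 nuclear protein-coding genes 1330 were then called (10.7%), 760 higher (6.14%) and 570 lower (4.6%), and 621 without D14 B. Of the 79 ribosomal proteins 5 were then higher and 2 lower, with a median of 0.20, and of the respiratory chain 4 of 65 were higher and 2 lower. None of the 38 chromatin regulators, 20 aminoacyl-tRNA synthetases and 40 ribosome biogenesis genes were called. Of the 38 DNA replication genes 8 were lower and 0 higher, and of the 32 p53 targets 5 were lower and 0 higher; without D14 B these counts were 1 and 1. CDKN1A had a length-corrected change of -1.18 (adjusted p = 0.022, limma; 0.095 without D14 B). RPL41 had one of -2.58 (adjusted p = 5.7e-06, limma), from 0.56 relative to the fitted length trend at D0 to -2.02 at D14. Its coding sequence lies at the short end of that trend, and at D0 its ratio was below the median of the class under 300 nucleotides in every letter. CCNI, cyclin I, rose by 1.72 (adjusted p = 6.6e-06, limma), from ratios of -2.05, -2.17 and -2.16 at D0 to -0.53, -0.23 and -0.40 at D14. GTF3A, the transcription factor of the 5S ribosomal RNA genes, rose by 2.16. CCNI and GTF3A were named outside the rule, after the values of this fit were seen, and their values without D14 B are not given here. Of 56 called genes named by the rule that entered this fit, 26 stayed called, 29 lost the call and 1 changed sign. Without D14 B these counts were 18, 37 and 1. Among the 56, ODC1 (1.08), GPX4 (1.29) and SRM (1.00) remained called with length removed, and MCM2 (-0.83, adjusted p = 0.062, limma) did not.

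The position of D14 in the course was read from the other days, which share the D14 libraries. Against D2, the end of the drug exposure, association at D14 differed for 4019 genes (25.3%), 2420 higher (15.3%) and 1599 lower (10.1%). Against D7 it differed for 6181 genes (39%), 3394 higher (21.4%) and 2787 lower (17.6%). Against D16 it differed for 16 genes (0.101%), 0 higher (0%) and 16 lower, with 223 genes at an unadjusted p under 0.05. Of those 16, 9 were mRNAs of the mitochondrial genome and 6 nuclear pseudogenes of them, and the other was LINC03061. The median ratio of the ribosomal proteins was -1.18 at D0, -1.92 at D1, -1.41 at D2, -2.19 at D7, -0.11 at D14 and -0.32 at D16. All 79 were higher at D14 than at D7 and 67 were higher than at D2. The mitochondrially encoded mRNAs stood at -1.64, -1.93, -4.02, -4.84, -5.30 and -3.17 on those days. The largest fall was from D1 to D2, and the rise from D14 to D16 was of similar size. Against D2, 10 of the 13 were called lower at D14 and 0 higher, and against D7 2 were lower and 0 higher. These 2 were MT-ND4L, at -2.69 against D7 (adjusted p = 5.0e-05, limma), and MT-ATP8, at -2.14 (adjusted p = 0.00041, limma). Chromatin regulators stood at 0.45, 1.15, 0.78, 0.48, -0.46 and -0.17.

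**Figure D5:**
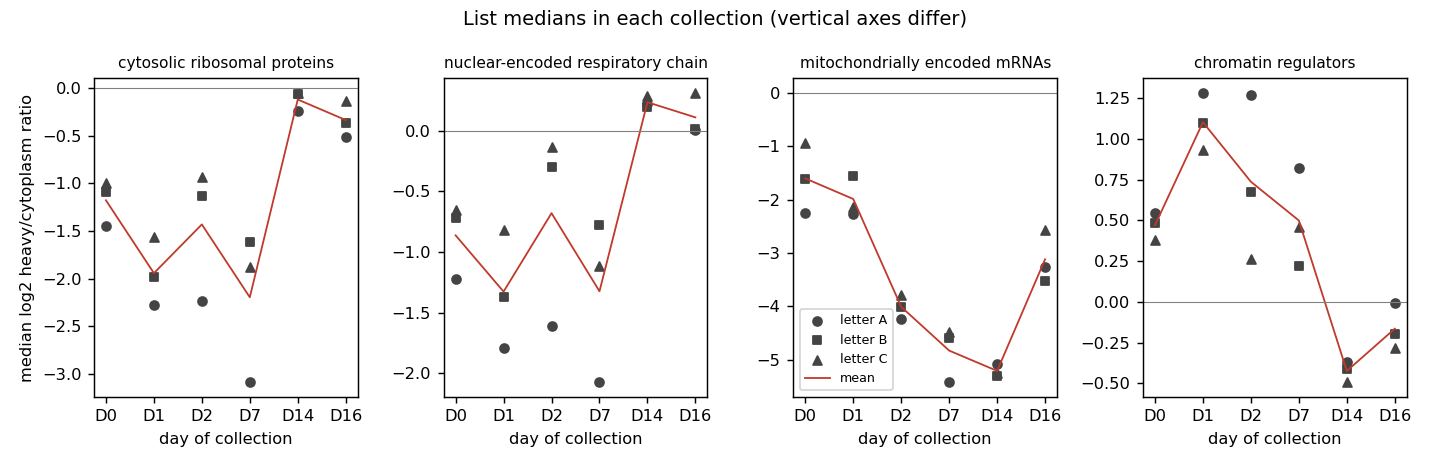
Median log2 ratio of heavy pool to cytoplasm of 4 gene lists in every collection, with days at equal distances on the horizontal axis, symbols for letters A, B and C and a red line through their mean. The ribosomal proteins and the respiratory chain stand higher at D14 and D16 than on the earlier days, and the chromatin regulators lower. The mean of the mitochondrially encoded mRNAs goes down from D1 to D14 and is higher again at D16. From D7 to D14 their letter A went up instead (-5.42 to -5.08).

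The remaining lists are given by their counts called higher and lower, which stand beside 13.7% and 11.6% of all genes tested. Of 30 proteasome subunits 1 was called higher and 3 lower, of 29 interferon-stimulated genes 2 and 7, of 25 ATF4 targets 2 and 3, of 22 genes of the unfolded protein response 3 and 0, of 25 cholesterol genes 1 and 3. Counts were 4 and 6 for 25 apoptosis genes, 3 and 3 for 21 NF-kB and secretory genes, 1 and 0 for 16 antigen presentation genes and 7 and 4 for 32 lysosome and autophagy genes. They were 1 and 6 for 34 adhesion and matrix genes, 4 and 1 for 15 polyadenylated histones, 1 and 0 for 13 SR splicing factors and 2 and 2 for 12 nuclear-retained and long noncoding RNAs. Of 144 zinc finger genes of chromosome 19 2 were called higher and 12 lower, with a median of -0.36 (-0.57 without D14 B), and their median was -0.59 in letter A, 0.09 in B and -0.63 in C. Without D14 B the higher and lower counts were 1 and 1 for the proteasome, 0 and 4 for interferon-stimulated genes, 1 and 2 for ATF4 targets, 1 and 0 for the unfolded protein response and 1 and 1 for cholesterol. They were 2 and 4 for apoptosis, 1 and 0 for NF-kB and secretory genes, 6 and 2 for lysosome and autophagy, 0 and 2 for adhesion and matrix, 2 and 0 for histones, 1 and 2 for nuclear-retained RNAs and 2 and 6 for zinc finger genes. With the letter as a block the counts were 2 and 5 for the proteasome and 2 and 6 for cholesterol, interferon-stimulated genes had 5 higher, ATF4 targets 5 lower, lysosome and autophagy 7 lower and SR splicing factors 1 lower. Among the epithelial markers EPCAM rose by 1.23, a call lost without D14 B (adjusted p = 0.077, limma), and of the 5 markers of other lineages 0 were called higher and 1, COL1A1, lower, a call that was lost without D0 A, D0 B, D14 B or D14 C (largest adjusted p = 0.0824). GAPDH and ACTB, common reference genes, had changes of 0.30 (adjusted p = 0.45, limma) and -0.24 (adjusted p = 0.47, limma).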

How the data were processed

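Gene counts divided by a size factor (normalised counts, a signal with no upper limit) were deposited by the authors in 1 table for all libraries. Per the submitters' processing notes, FastQC 0.11.9, cutadapt 3.2, STAR 2.7.9a (genome GRCh38), the Subread 2.0.1 counter featureCounts, and DESeq2 1.30.1 were used; the strand setting is not given in the sources used here. Per the labels' protocols, RNA was poly(A)-selected. Of 54 columns, 36 belong to the samples, and 18 belong to no sample and were not used. All 15891 genes exceed 1 in every column, so genes silent in any library are not analysed here. Depths were summed from values divided by what 1 read is worth in a library (100 percent of them whole to 0.01). Libraries of a group differed by more than counting noise in every pair.

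Each ratio was log2(heavy + 1) minus log2(cytoplasm + 1), centred on its median over genes. Genes with at least 10 in at least 3 of the 12 libraries were kept. limma 3.58.1 (R 4.3.3; lmFit, eBayes with trend) was fitted to the 18 ratios of all days, two-sided, with Benjamini-Hochberg adjustment over all genes tested. Fractions were fitted in the same way on log2 values. SE is limma's, and intervals are 95%. Coding lengths and GC content came from GENCODE 29, and 15856 identifiers had a symbol. Members and gene lists were chosen with earlier results of these data known. Named genes are, among called protein-coding genes with a group mean of at least 100 and the same sign in 3 letters, the 12 largest rises and 12 largest falls, from every list at most the 4 called genes with the largest change, and a further set of genes such as FTL, TYMS and CDKN1A. The steps were tested on simulated data.

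The letters pair libraries, since the labels give them as batches. Deviations of same-letter ratios at D0 and D14 correlated at r = 0.058, -0.273 and -0.205 for A, B and C over genes. The block for letter was an alternative. Other alternatives changed the centring, pseudocount, filter, trend and GC correction, or left out libraries, and a coding length correction was added after the data were seen.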

Additional observations from a re-analysis of the deposited data

Results flagged for a closer look

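Differences of the association between D14 and other days of the course were tested directly, and the counts are given here since the heavy-to-cytoplasm contrast differed between the days. Association at D14 differed from D2 for 4019 genes and from D7 for 6181 genes, and it differed from D16 for 16 genes, in limma's test at an adjusted p under 0.05. These comparisons share the D14 libraries. Dixon's test was not applied to single values, since each group holds 3 libraries.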

How the results depend on the processing

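The 2177 higher and 1843 lower genes of the association change were recounted under each alternative. Leaving out 1 ratio of D0 or D14 gave 1988 to 3552 called genes, 1251 to 1872 higher and 688 to 1680 lower. Leaving out a letter on all days gave 3633 called genes without A, 396 without B (346 higher, 50 lower) and 112 without C (92 and 20), in fits of fewer samples. The GC correction gave 2905 lower genes. With the replicate block (letter) 5419 genes were called (2828 higher, 2591 lower), and with the block and the GC correction 7036 (3790 lower). All 64 called genes that the naming rule picked and the report names stayed called with the block, and MYC became called. IDS, CCNI and GTF3A, named outside the rule, were not among the 64. The coding length correction, chosen after the data were seen, gave 1330 calls (760 higher, 570 lower), 621 without D14 B (476 and 145) and 2314 with the block (1171 and 1143); it removes a trend that the main result holds. Without centring the medians of the shortest and longest coding classes were 1.225 and -0.9116, and with protein-coding centring 1.485 and -0.652. Called genes of the other comparisons, leaving out 1 library, were 1107 to 1748 in the cytoplasm, 2479 to 3433 against D2 and 9 to 10 against D16. Of these 64 called genes, 47 stayed called without D14 B. With a letter left out on all days, 62 stayed called without A, 24 without B and 12 without C, so 40 and 52 calls were lost without B and C. Under settings that only left out libraries 0 of the 64 changed sign.

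Signs changed mainly under the length correction. For adhesion and matrix the median was 0.09496 (also with the block), 0.2023 without D14 B and 0.1256 after GC correction. It was -0.03762 (also with the block) and -0.07673 without D14 B for mitochondrial ribosomal proteins, and -0.06892 (also with the block), -0.4671 without D14 B and -0.1829 after GC correction for the 2 snoRNA host genes that have a coding length. Without D14 B it was -0.08164 for selenoproteins and 0.05515 for other lineages. In the same order of plain, block, without D14 B and after GC correction, EEF2 had 0.08055, 0.08055, 0.3225 and 0.2641, FTL -0.3457, -0.3457, -0.2606 and -0.2185, and EIF4E -0.09445, -0.09445, -0.5048 and -0.2556. NOP10 had -0.03591, with the block -0.03591 and after GC correction -0.009951, and RPS27L -0.1031 after GC correction. COL1A1 had 0.06709 without D14 B and 0.1613 after GC correction. MDM2 had 0.1269, with the block 0.1269, and 0.06215 with protein-coding centring. Leaving out 1 ratio, MDM2 ran from -0.4796 to 0.1589, EIF4E from -0.1349 to 0.5278 and the other-lineage median from -0.803 to 0.1557. Without a letter on all days MDM2 had 0.3435 (A) and 0.001609 (C) and EIF4E -0.1744 (B). Apart from the construction of the length correction, the causes of these changes were not tested. edgeR and DESeq2 on recovered reads were planned and not run. No depth limit applies to single values, since every gene exceeded 1 in every library.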
